A study of Mus musculus with 6 samples.

Results

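Amino acid transporter genes were compared between mouse induced pluripotent stem cells (iPSCs) with and without serum response factor (SRF), a transcription factor of cytoskeletal and immediate-early genes. The group was defined by name, as every row of the count table that starts with Slc1a, Slc3a, Slc6a, Slc7a, Slc36a, Slc38a or Slc43a. It held 64 of the 24421 gene entries of the table, and 40 of the 64 had a mean of 10 or more counts over the 6 libraries. All 40 were among the 14778 genes tested. None had a mean under 10 counts in either group alone, so that no gene entered through the higher group only. The remaining 24 were under the minimum, and 3 of these, Slc6a18, Slc6a19os and Slc7a12, had no count in any library. The others were Slc1a2, Slc1a7, Slc3a1, Slc6a2, Slc6a3, Slc6a4, Slc6a5, Slc6a11, Slc6a12, Slc6a13, Slc6a19, Slc6a20a, Slc6a20b, Slc7a10, Slc7a13, Slc7a14, Slc7a15, Slc36a1os, Slc36a2, Slc36a3 and Slc38a11.

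The RNA came from 3 libraries of SRFΔ/Δ cells, called SRF KO, and 3 of SRFf/f cells, called WT, which carry the floxed, undeleted Srf alleles. Both kinds of iPSCs were grown in medium with serum, and no other treatment is named. The labels do not say how the deletion was induced, whether a group is 1 clone, or whether replicates are separate cultures, so that p-values measure only the spread between these libraries. Total counts were between 26321602 and 36680156 per library.

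Srf was examined first, since it is the deleted gene. Its level was 4.1997, 3.17 and 4.53 CPM (counts scaled to library size) in SRF KO replicates 1 to 3 and 36.6, 29.7 and 37.2 CPM in WT replicates 1 to 3. The groups did not overlap, and the log2 fold change of SRF KO over WT was -3.12 (SE 0.13, adjusted p 8.1e-09). Here and below, fold changes and adjusted p come from the quasi-likelihood test of edgeR, two-sided, with p adjusted by Benjamini and Hochberg's method over all entries tested, and a gene is said to rise or fall only at an adjusted p under 0.05. The pluripotency factor Pou5f1 was abundant in both groups, at 773 ± 11.3 CPM in SRF KO against 818 ± 52.4 CPM in WT (SD, n = 3). Of 10 pluripotency markers 1 rose and 6 fell, against 21.2% higher and 21.3% lower among all genes tested. Their summed level was 5450.3 to 5563 CPM in SRF KO and 6763 to 7219.9 CPM in WT. In log2 fold change, the 6 that fell were at -0.79 (Nanog), -0.70 (Tfcp2l1), -0.52 (Klf4), -0.49 (Esrrb), -0.42 (Dppa5a) and -0.20 (Tdgf1). The 1 that rose, Zfp42, lost its call without SRF KO replicate 1, SRF KO replicate 2, WT replicate 1 or WT replicate 3. Markers of other cells were set beside the same shares over all genes. Of 15 markers of extraembryonic endoderm, 14 were tested and all 14 rose, with a summed level of 1611 to 1740.0 CPM in SRF KO and 131 to 144 CPM in WT, where Ttr was at 0 counts in all 3 libraries. All 12 fibroblast markers rose too, from a summed 585 to 660.1 CPM in WT to 1201 to 1453 CPM in SRF KO, and none of them was at 0 in any library. Of 7 tested trophoblast markers 2 fell, Krt7 at -2.43 and Ascl2 at -0.80 on the log2 scale. Of 6 tested neural markers 1 rose, Nes at 0.44, and 2 fell, Map2 at -1.33 and Neurog1 at -1.19. For trophoblast and neural markers, counts among so few genes cannot be set apart from the shares over all genes. The call of Neurog1 was lost under DESeq2 and when WT replicate 3 or either of SRF KO replicates 1 and 3 was left out. In bulk RNA, more cells of a type and more RNA per cell cannot be told apart.

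Amino acids carry charges in water and cross membranes through carrier proteins. Some carriers use the sodium gradient to concentrate amino acids, and others exchange an amino acid inside the cell for another outside. Several members of the Slc7 family work only as the light chain of a pair, joined to a heavy chain of the Slc3 family that carries it to the cell surface. The amino acids that enter serve protein synthesis, one-carbon metabolism and glutathione synthesis, and the kinase complex mTORC1 responds to their supply. Mouse embryonic stem cells are known for a strong dependence on threonine.

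More of these genes rose than fell without SRF. Of the 40 members, 20 were higher and 2 lower in SRF KO, against 21.2% higher and 21.3% lower among all genes tested. Changes of at least 1.5-fold were made by 11 members, all upward, against 10.2% of all genes higher and 5.47% lower by that much. The SRF KO libraries all lay above the WT libraries for 24 members and all below for 5, against 26.2% and 26.5% of all genes tested. The median log2 fold change of the members was 0.26, beside -0.01 over all genes tested, and single values ran from -0.42 to 2.43. Summed over the 40 members, levels were 3707, 3702 and 3658 CPM in SRF KO and 2915, 2786 and 3005 CPM in WT, without overlap. This sum was 1.27 times higher in SRF KO, and the Slc7a family took most of the difference, with 766 ± 49.1 CPM in WT against 1264 ± 13.3 CPM in SRF KO (SD over 3 libraries each). The markers of extraembryonic endoderm and fibroblasts named above were higher in the same 3 SRF KO libraries, and their part in these results was not tested.

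By family, 9 of 11 Slc7a entries rose and none fell, against 21.2% higher and 21.3% lower among all genes tested. In the Slc6a family 4 of 8 rose, in the Slc1a family 2 of 5, in the Slc36a family 1 of 2 and in the Slc3a family the 1 entry tested, none of these families having a member that fell. The Slc38a family, with 10 entries, had 2 that rose and 1 that fell, and the Slc43a family, with 3, had 1 of each. The Slc38a counts do not stand out from the shares over all genes. Families of 1 to 5 entries are too small to compare with those shares. The median log2 fold change was 0.78 in the Slc7a family and 0.12 in the Slc38a family.

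**Figure D1:**
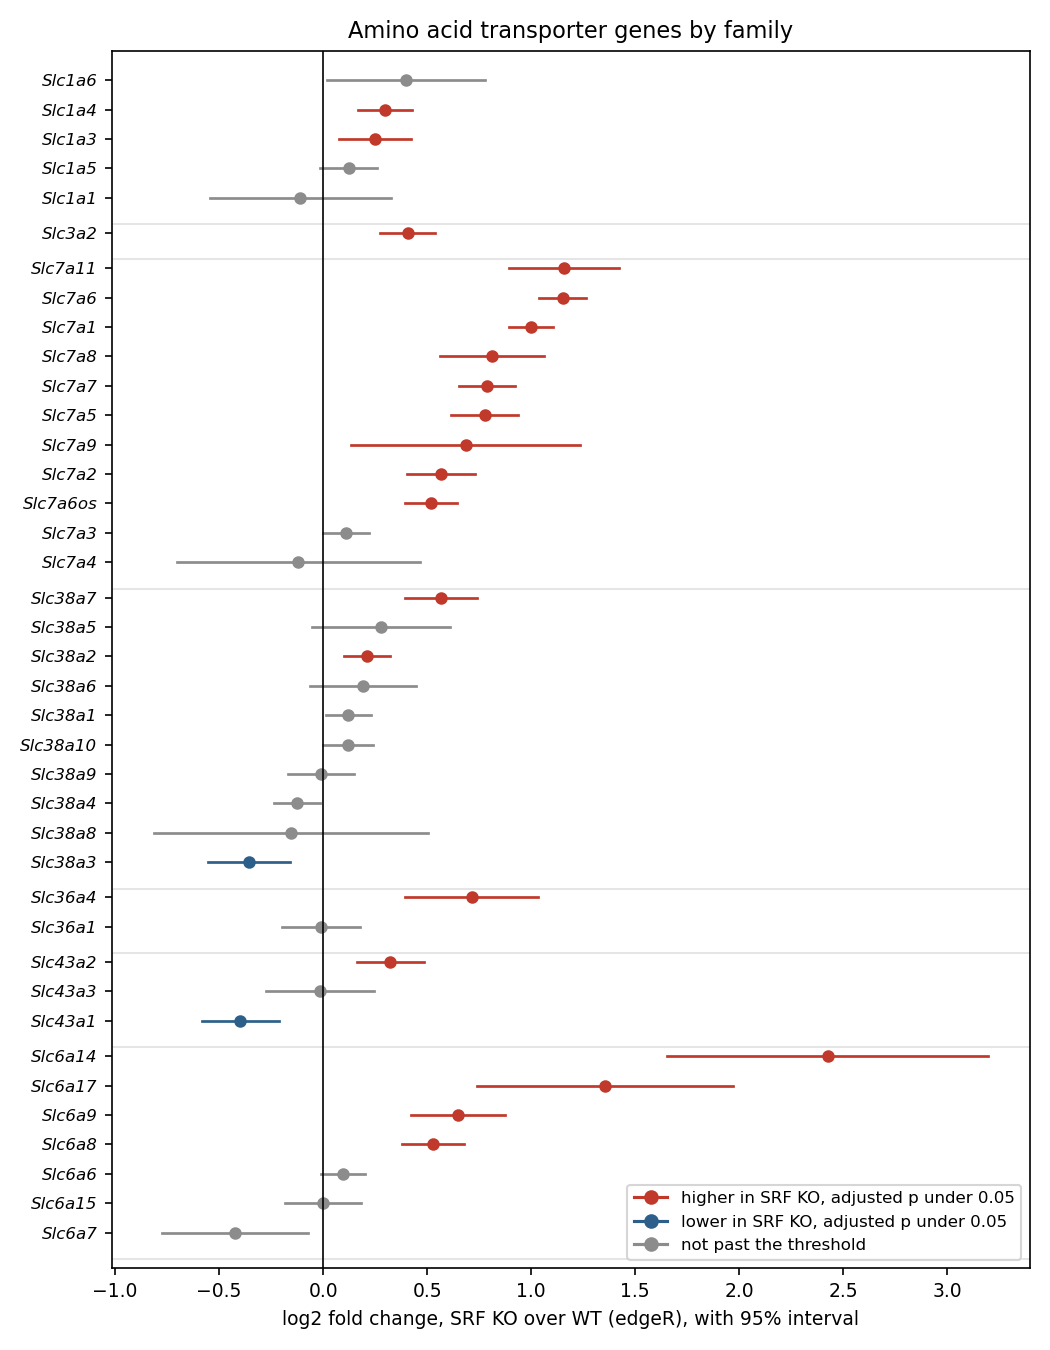
Log2 fold change of SRF KO over WT (x axis) for 39 of the 40 amino acid transporter entries with a mean of 10 or more counts, 1 row per gene and blocks by family. Points are edgeR estimates from 3 against 3 libraries and bars their 95% intervals. The 20 genes that rose are red, the 2 that fell blue, and 9 of the 11 Slc7a entries are red.

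The surface heavy chain rose, and so did the 5 light chains of it that met the count minimum. Slc3a2 encodes 4F2hc (CD98), the heavy chain shared by the light chains Slc7a5, Slc7a6, Slc7a7, Slc7a8 and Slc7a11. Its light chain Slc7a10 had at most 2 counts in any library and was not tested. Its level was 366, 347 and 367 CPM in the SRF KO libraries and 278, 248 and 289 CPM in the WT libraries. The lowest SRF KO library was above the highest WT library, a log2 fold change of 0.41 (SE 0.06, adjusted p 2.5e-04), or 1.33-fold. The other heavy chain, Slc3a1 (rBAT), lay just under the minimum with a mean of 9.33 counts and was not tested, its counts being 10, 6 and 12 in SRF KO and 12, 6 and 10 in WT.

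Slc7a5 encodes LAT1, the main carrier of leucine and other large neutral amino acids in dividing cells. It had 488, 466 and 485 CPM in the SRF KO libraries and 287, 244 and 308 CPM in the WT libraries. Every SRF KO library was above every WT library, WT replicate 2 being the lowest, and the log2 fold change was 0.78 (SE 0.07, adjusted p 7.7e-06). Without WT replicate 2 it was 0.69. WT replicate 2 was the lowest WT library for 28 of the 40 members.

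Slc7a6 and Slc7a7 encode y+LAT2 and y+LAT1, which exchange intracellular cationic amino acids such as arginine for neutral amino acids and sodium outside. Slc7a6 stood at 122, 123 and 119 CPM without SRF and 54.1, 52.7 and 57.4 CPM in WT. Its replicates lay close together and the groups far apart, at a log2 fold change of 1.15 (SE 0.05, adjusted p 1.6e-08), the smallest adjusted p of the 40 members. For Slc7a7 the levels were 87.1, 78.5 and 92.3 CPM in WT and 146, 147 and 153 CPM in SRF KO. It too separated the groups, with a log2 fold change of 0.79 (SE 0.06, adjusted p 1.6e-06). Slc7a6os, which the naming rule includes, is a protein-coding neighbour of Slc7a6 on the opposite strand and is not known as a transporter. The 2 genes lie on chromosome 8, Slc7a6 at chr8:106168219-106198714 and Slc7a6os at chr8:106200438-106210933, and RefSeq leaves 1723 bases between them. Slc7a6os had 68.3, 71.5 and 68.6 CPM in SRF KO against 46.9, 51.97 and 46.6 CPM in WT, a rise of 0.52 on the log2 scale (adjusted p 2.8e-05). Whether the counting used strand is not given in the sources used here, so reads of these neighbours may not be fully told apart. Without Slc7a6os, 19 members rose, 8 of them among 10 Slc7a transporters.

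Slc7a8 encodes LAT2, another neutral amino acid exchanger of this pair type. Its levels were 8.81, 6.99 and 7.54 CPM in the SRF KO libraries and 4.53, 4.12 and 4.601 CPM in the WT libraries, low beside Slc7a5. The groups did not overlap and the log2 fold change was 0.81 (SE 0.11, adjusted p 1.7e-04). Slc7a7 and Slc7a8 are near each other on chromosome 14, at chr14:54369442-54420068 and chr14:54722215-54781886.

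Slc7a11 encodes xCT, which imports cystine in exchange for glutamate and so supplies cysteine for glutathione. It had 4.72, 4.76 and 4.74 CPM without SRF and 2.07, 2.06 and 2.23 CPM in WT. The SRF KO libraries were nearly alike and all above the WT libraries, at a log2 fold change of 1.16 (SE 0.12, adjusted p 1.7e-05) from 53 to 137 counts per library. The gene lies at chr3:50364936-50499087.

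Slc7a11 is a textbook target of the transcription factor ATF4, which binds sites of the C/EBP-ATF type when amino acids are short, and its promoter is shown for that reason. The window is the 250 bases before a RefSeq start site, chr3:50443614-50443863 on the minus strand of GRCm38.p6, written 5′ to 3′ along the gene, with matches to TGATGNAA on either strand in capitals.
Slc7a11: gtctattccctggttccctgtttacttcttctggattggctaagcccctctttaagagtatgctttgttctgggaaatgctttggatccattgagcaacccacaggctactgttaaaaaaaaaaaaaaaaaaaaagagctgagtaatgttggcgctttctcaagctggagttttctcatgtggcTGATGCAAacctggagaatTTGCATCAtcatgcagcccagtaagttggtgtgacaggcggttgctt
The 2 matches face each other, the first on the gene's strand 66 bases before the start and the second, read as TTGCATCA in this direction, from 47 bases before it. Slc7a7 was the other member with a match, in each of 2 overlapping windows of its start sites. The upstream one, chr14:54417945-54418194 on the minus strand, is printed with its match in capitals, 141 bases before the start.
Slc7a7: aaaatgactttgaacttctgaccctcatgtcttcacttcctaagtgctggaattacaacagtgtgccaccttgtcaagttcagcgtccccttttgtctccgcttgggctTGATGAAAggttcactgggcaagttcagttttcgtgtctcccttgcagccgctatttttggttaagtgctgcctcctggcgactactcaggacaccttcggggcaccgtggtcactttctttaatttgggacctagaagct
RefSeq promoters could be matched to 27 of the 40 members. Searched on both strands over the 250 bases before each start, TGATGNAA was found in 2 of these 27 members, against 2.43% of 10970 tested genes with a promoter in the table. The CArG box, the motif bound by SRF, was found in 0 of the 27 members, against 1.34% of those genes. At shares this low, 27 members are too few to set either count apart from that over all genes. A match is a run of letters and not a measured binding site, and the absence of a match covers only this window. Slc7a5, Slc7a2 and Slc1a5 were among the members not in the promoter table.

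To compare the heavy chain with its light chains, levels were divided by transcript length. The 5 light chains together had 238, 232 and 239 CPM per kb in SRF KO and 136, 119 and 145 CPM per kb in WT. Slc3a2 had 130.3, 123 and 130.3 CPM per kb in SRF KO and 98.7, 88.2 and 103 CPM per kb in WT. The ratio of light to heavy chain transcripts was 1.38 ± 0.0288 in WT and 1.85 ± 0.0287 in SRF KO (SD, n = 3), the groups not overlapping. This ratio is a description of the members and has no test. Its size and the light chain shares below depend on the lengths used, those of the longest protein-coding transcript in GENCODE M21. Of the light chain sum, Slc7a5 made up 57.7% ± 0.616 in SRF KO and 59.7% ± 1.22 in WT, and Slc7a6 13.7% ± 0.431 and 10.999% ± 0.692 (SD, n = 3).

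**Figure D2:**
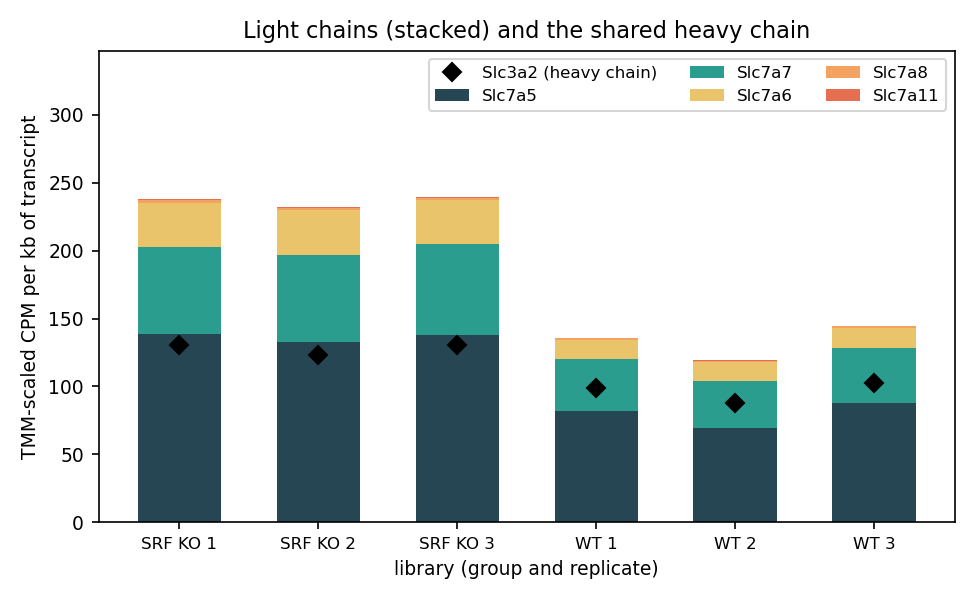
Level in TMM-scaled CPM per kb of transcript (y axis) of the 5 light chains, stacked, and of the heavy chain Slc3a2 (diamonds), in each of the 6 libraries (x axis). The stacks reach 232 to 239 in SRF KO and 119 to 145 in WT, while the heavy chain lies at 123 to 130.3 and 88.2 to 103.

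Of the cationic amino acid transporters, which carry arginine, lysine and ornithine without a heavy chain, 2 of 4 rose. Among all genes tested 21.2% were higher, and 4 genes are too few to compare with that share. Slc7a1 encodes CAT1, the widely expressed arginine carrier. It had 123, 119 and 128 CPM in WT and 252, 242 and 245 CPM in SRF KO. This was a 1.999-fold difference with little spread in either group, at a log2 fold change of 0.999 (SE 0.05, adjusted p 3.4e-08). Slc7a2, encoding CAT2, had 17.7, 17.9 and 19.2 CPM in SRF KO against 11.8, 12.4 and 12.9 CPM in WT, and rose by 0.57 on the log2 scale (adjusted p 1.0e-04). Slc7a3, encoding CAT3, had 166, 170.4 and 157 CPM in the SRF KO libraries and 155, 146 and 156 CPM in the WT libraries. Its groups did not overlap, but the difference was small and did not pass the threshold, with a log2 fold change of 0.11 (95% interval -0.0023 to 0.22, adjusted p 0.109). Slc7a4, a relative whose transport function is unsettled, had at most 2.23 CPM in any library and a log2 fold change of -0.12 (95% interval -0.70 to 0.47). In WT the level per kb of Slc7a3, at 55.5 ± 1.95 CPM per kb, was above that of Slc7a1, at 17.2 ± 0.588 CPM per kb, and in SRF KO these were 59.9 ± 2.49 and 34.3 ± 0.753 CPM per kb (SD, n = 3).

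Slc7a9 encodes the light chain of the heavy chain Slc3a1 and was near the lower limit, with 22, 20 and 18 counts in SRF KO and 17, 12 and 12 counts in WT. Its log2 fold change of 0.68 (SE 0.25) passed with an adjusted p of 0.0472, but the call was lost in 9 of 11 alternative analyses, with adjusted p up to 0.206 under DESeq2. The entry just above the minimum, Slc38a8, had 11, 12 and 13 counts in SRF KO and 13, 16 and 15 counts in WT.

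**Figure D3:**
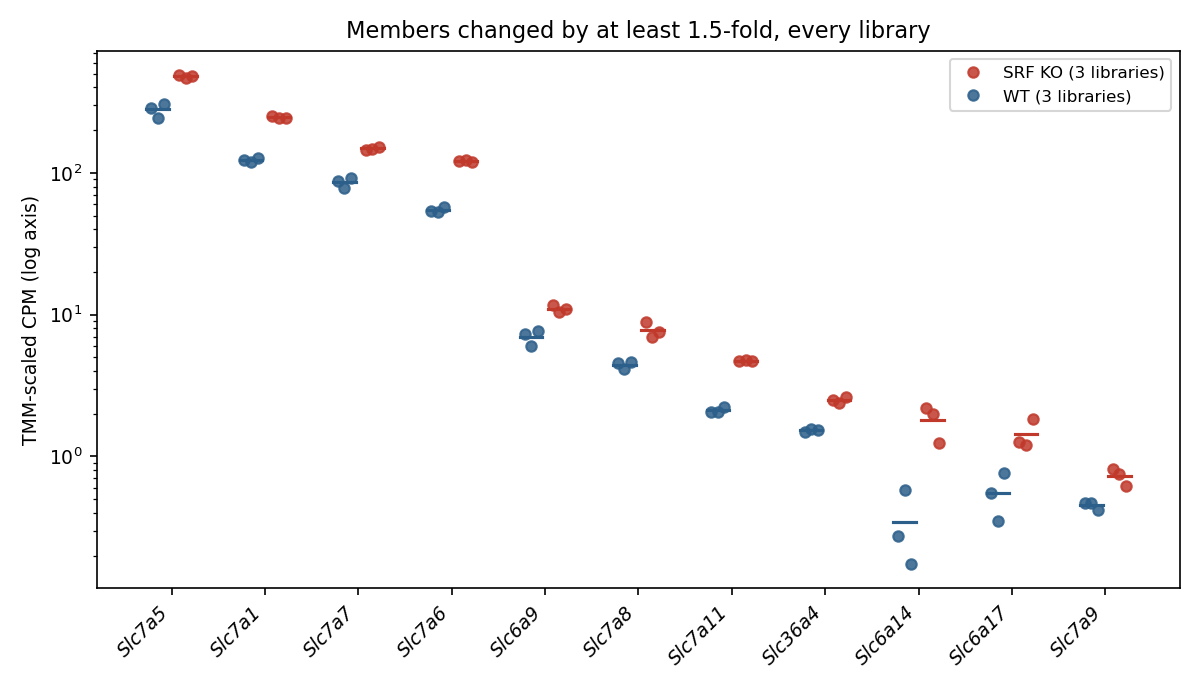
TMM-scaled CPM (y axis, log scale) of the 11 members that changed by at least 1.5-fold at an adjusted p under 0.05, with 1 point per library and a line at the mean of 3. SRF KO points (red) lie above all WT points (blue) for each of the 11 genes, from Slc7a5 at 466 to 488 CPM in SRF KO down to Slc7a9 under 1 CPM.

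The sodium-coupled neutral amino acid transporters of the Slc38 family had a median log2 fold change of 0.12, and 7 of 10 did not pass the test. The 3 of 10 that passed do not stand out from the 42.4% of all genes tested that were called. Slc38a2 encodes SNAT2, a system A carrier of alanine, serine and glutamine that is known to be induced when amino acids are scarce, and it had the highest level per kb of all members. It stood at 692, 734 and 669.97 CPM without SRF and 593, 616 and 599.9 CPM in WT. All SRF KO libraries were above the WT libraries, by a log2 fold change of 0.21 (SE 0.05, adjusted p 0.00558). Slc38a4, encoding SNAT4 and imprinted in the mouse, had 264, 255 and 259.7 CPM in WT and 231, 252 and 230.3 CPM in SRF KO. Its SRF KO values lay below the WT values, but the difference did not pass, with a log2 fold change of -0.13 (95% interval -0.24 to -0.01, adjusted p 0.0704). It did pass without WT replicate 2 (-0.13, adjusted p 0.0203) and without SRF KO replicate 2 (-0.16, adjusted p 0.038). Slc38a1, encoding SNAT1, had 182, 187 and 174 CPM in SRF KO against 169, 162 and 168 CPM in WT, and its log2 fold change of 0.12 did not pass (95% interval 0.01 to 0.23, adjusted p 0.0669). It passed without WT replicate 2, at 0.11 (adjusted p 0.046), and with DESeq2 size factors, at 0.13 (adjusted p 0.0474). Slc38a1, Slc38a2 and Slc38a4 are neighbours on chromosome 15, at chr15:96571418-96643438, chr15:96687392-96699728 and chr15:96994816-97055956.

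Slc38a3, encoding the system N glutamine carrier SNAT3, was the 1 gene of this family that fell. It had 10.3, 10.3 and 11.4 CPM in the SRF KO libraries and 13.6, 12.4 and 14.95 CPM in the WT libraries, without overlap, and a log2 fold change of -0.35 (SE 0.09, adjusted p 0.00803). The other system N gene, Slc38a5 (SNAT5), had a log2 fold change of 0.28 with overlapping groups (95% interval -0.05 to 0.61, adjusted p 0.163). Slc38a6, Slc38a8 and Slc38a10 did not pass either, with log2 fold changes of 0.19, -0.16 and 0.12.

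Carriers of the lysosome and of the Slc36 family differed among themselves. Slc38a7 encodes SNAT7, which exports glutamine from lysosomes, and had 42.5, 42.98 and 42.4 CPM without SRF and 29.1, 25.1 and 31.9 CPM in WT. It rose by 0.57 on the log2 scale (SE 0.08, adjusted p 1.5e-04). Slc36a4, encoding the amino acid carrier PAT4, had 1.49, 1.55 and 1.53 CPM in WT and 2.49, 2.38 and 2.63 CPM in SRF KO. At 40 to 76 counts per library it rose by 0.71 (SE 0.15, adjusted p 0.0023). In contrast, Slc38a9, the lysosomal arginine sensor that signals to mTORC1, had 17.8, 18.4 and 18.2 CPM in SRF KO against 16.98, 19.2 and 18.8 CPM in WT. Its groups overlapped, with a log2 fold change of -0.01 (95% interval -0.17 to 0.15, adjusted p 0.924). Slc36a1, encoding the lysosomal carrier PAT1, was likewise at -0.01 (95% interval -0.20 to 0.18, adjusted p 0.94), so that for both genes the interval leaves out changes of 1.5-fold.

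The Slc43 family carries branched-chain and aromatic amino acids without a partner or sodium, and its members went different ways. Slc43a1, encoding LAT3, had 7.51, 8.31 and 7.88 CPM in the SRF KO libraries and 10.4, 10.1 and 10.7 CPM in the WT libraries. This was the larger of the 2 falls among the members, a log2 fold change of -0.40 (SE 0.08, adjusted p 0.00283). Slc43a2, encoding LAT4, had 15.4, 15.3 and 15.8 CPM without SRF and 12.3, 11.9 and 13.002 CPM in WT and rose by 0.32 (adjusted p 0.00431). Slc43a3, known as a purine nucleobase carrier and so no amino acid transporter by function, had a log2 fold change of -0.01 (95% interval -0.27 to 0.25, adjusted p 0.936).

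In the Slc1 family, the neutral amino acid exchangers and the glutamate carriers were both represented. Slc1a5 encodes ASCT2, a major glutamine exchanger of proliferating cells, and had 158, 139 and 165 CPM in WT and 172, 164 and 168 CPM in SRF KO. The highest WT library lay above the lowest SRF KO library, and the log2 fold change of 0.12 did not pass (95% interval -0.01 to 0.26, adjusted p 0.136). Slc1a4, encoding its relative ASCT1, which carries serine and alanine, had 42.9, 41.3 and 43.7 CPM in SRF KO against 35.8, 32.96 and 35.2 CPM in WT and rose by 0.30 (adjusted p 0.00178). Among the glutamate carriers, Slc1a3 (GLAST) had 42.4, 47.1 and 44.2 CPM in the SRF KO libraries and 35.6, 42.4 and 34.7 CPM in the WT libraries. The lowest SRF KO and the highest WT library nearly met, at a log2 fold change of 0.25 (SE 0.08, adjusted p 0.0245). This call was lost without SRF KO replicate 2 (adjusted p 0.0965), SRF KO replicate 3 (0.0696), WT replicate 1 (0.104) or WT replicate 3 (0.0766). Slc1a6 and Slc1a1, with at most 49 counts in any library, had log2 fold changes of 0.40 and -0.11 that did not pass (95% intervals 0.02 to 0.78 and -0.54 to 0.32).

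The Slc6 family holds sodium- and chloride-coupled carriers of neurotransmitters, osmolytes and amino acids. The largest fold changes of all members were found here, in genes of low level. Slc6a14 encodes ATB0,+, which takes up both neutral and cationic amino acids, and had 59, 53 and 36 counts in SRF KO and 10, 15 and 5 counts in WT. These were 2.19, 2.002 and 1.24 CPM and 0.276, 0.583 and 0.174 CPM, a log2 fold change of 2.43 (SE 0.35, adjusted p 2.2e-04). Although every SRF KO value was above every WT value, the 95% interval of 1.65 to 3.20 is wide at this depth. Slc6a17, encoding the vesicular neutral amino acid carrier NTT4, had 34, 32 and 53 counts in SRF KO and 20, 9 and 22 counts in WT, with a log2 fold change of 1.35 (SE 0.28, adjusted p 0.00245). Slc6a9 encodes the glycine carrier GLYT1 and had 11.7, 10.5 and 10.9 CPM without SRF and 7.26, 6.03 and 7.704 CPM in WT. Its rise of 0.65 on the log2 scale rested on 155 to 315 counts per library (SE 0.10, adjusted p 4.1e-04).

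Slc6a8, encoding the creatine carrier, had 88.2, 80.4 and 98.9 CPM in WT and 132, 126 and 128 CPM in SRF KO. It rose by 0.53 (SE 0.07, adjusted p 8.3e-05). Slc6a6, encoding the taurine carrier, was more abundant, with 292, 286 and 295 CPM in SRF KO against 272, 262 and 283 CPM in WT, and its log2 fold change of 0.10 did not pass (95% interval -0.01 to 0.20, adjusted p 0.135). The proline carrier Slc6a7 had the most negative estimate of all members, -0.42, at 42 to 100 counts per library, and missed the threshold with an adjusted p of 0.0532. It passed without WT replicate 2, at -0.48 (adjusted p 0.031). Slc6a15, the neutral amino acid carrier B0AT2, stood at -0.003 (95% interval -0.19 to 0.18).

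Levels per transcript length placed the members in order. The highest in WT were Slc38a2 at 129 ± 2.45, Slc3a2 at 96.5 ± 7.49, Slc7a5 at 79.6 ± 9.23, Slc38a4 at 66.0 ± 1.11, Slc1a5 at 55.7 ± 4.85 and Slc7a3 at 55.5 ± 1.95 CPM per kb (SD, n = 3). The last 2 did not differ beyond their spread. In SRF KO the same genes had 149.9 ± 6.94, 128 ± 4.06, 136 ± 3.46, 60.5 ± 3.18, 60.7 ± 1.46 and 59.9 ± 2.49 CPM per kb, so that Slc7a5 stood above Slc3a2 there and below it in WT. In SRF KO, Slc7a7 at 65.2 ± 1.86 CPM per kb was above Slc38a4, while in WT it was at 37.7 ± 3.05. Together these 6 genes made up 63.4% of the summed level per kb of the members in WT and 60.7% in SRF KO. Lengths are of the longest protein-coding transcript in GENCODE M21, so the order depends on which transcripts these cells use.

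**Figure D4:**
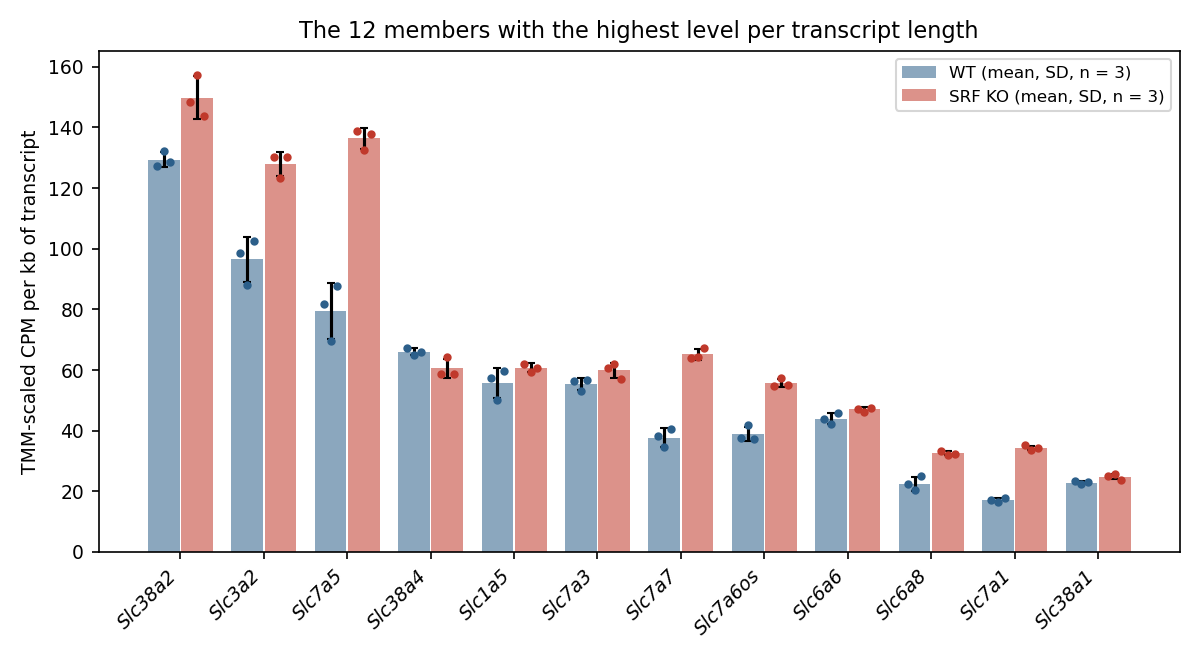
Level in TMM-scaled CPM per kb of transcript (y axis) of the 12 members with the highest mean over the 6 libraries. Bars are means of 3 libraries with SD, and points single libraries. Slc38a2 is highest in both groups. The red bars (SRF KO) stand well above the blue ones (WT) for Slc3a2, Slc7a5, Slc7a7, Slc7a6os, Slc6a8 and Slc7a1. They do not for Slc38a4, Slc1a5, Slc7a3, Slc6a6 or Slc38a1.

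Genes that act beside the transporters were compared from lists. Of all genes tested, 21.2% were higher and 21.3% lower, or 42.4% called in either direction. Of 25 tested genes of the amino acid response, the program driven by ATF4, 10 rose and 7 fell, with a median log2 fold change of 0.05. Atf4 itself had 441 ± 3.91 CPM without SRF against 348 ± 5.86 CPM in WT (SD, n = 3) and rose by 0.34 on the log2 scale (adjusted p 1.0e-04). Atf3, a stress-induced transcription factor, and Chac1, a glutathione-degrading enzyme, rose by 0.75 and 0.90, while Cth, which makes cysteine, changed by -0.42. Of the 19 tested transporters outside the 7 families 7 rose and 3 fell, with a median of 0.01. Among them the peptide carriers Slc15a2 and Slc15a1 changed by 1.22 and -0.64, and the mitochondrial carriers Slc25a22 and Slc25a12, for glutamate and for aspartate and glutamate, by 0.42 and -0.45.

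Of 36 genes of mTORC1 and its amino acid sensors 3 rose and 10 fell, with a median of -0.06. In either direction 36.1% were called, near the 42.4% of all genes tested (21.2% higher and 21.3% lower). Without SRF KO replicate 1 or replicate 3 only 1 of the 36 genes rose. Rragd, a GTPase that brings mTORC1 to the lysosome, changed by -0.81 (adjusted p 1.3e-05). Tsc1, part of the complex that inhibits mTORC1, and Sesn3 changed by -0.34 and -0.43, and the leucine sensor Sesn2 by 0.40. Of the 20 cytosolic aminoacyl-tRNA synthetases, which charge tRNAs with amino acids, 2 rose and 2 fell, with a median of 0.04. Farsa and Aars rose by 0.29 and 0.24, while Dars and Gars fell, at -0.23 and -0.12. The call of Gars was lost in 8 of 11 alternative analyses (adjusted p up to 0.158), and that of Dars without SRF KO replicate 1 or replicate 3, with adjusted p of 0.0541 and 0.0519. Without WT replicate 2, 4 synthetases rose and 4 fell. Enzymes of amino acid metabolism numbered 37, of which 6 rose and 12 fell, with a median of -0.03. In either direction 48.6% of these enzymes were called, near the share over all genes. Glul, glutamine synthetase, was at 382 ± 3.15 CPM in SRF KO against 200.1 ± 3.02 CPM in WT (SD, n = 3), a rise on the log2 scale of 0.93 (adjusted p 3.1e-08), and Mat2a, which makes S-adenosylmethionine, rose by 0.55. Amt, of the glycine cleavage system, and Cbs, of cysteine synthesis, changed by -0.38 and -0.41. Without SRF KO replicate 3 the number of these enzymes that fell was 7.

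**Figure D5:**
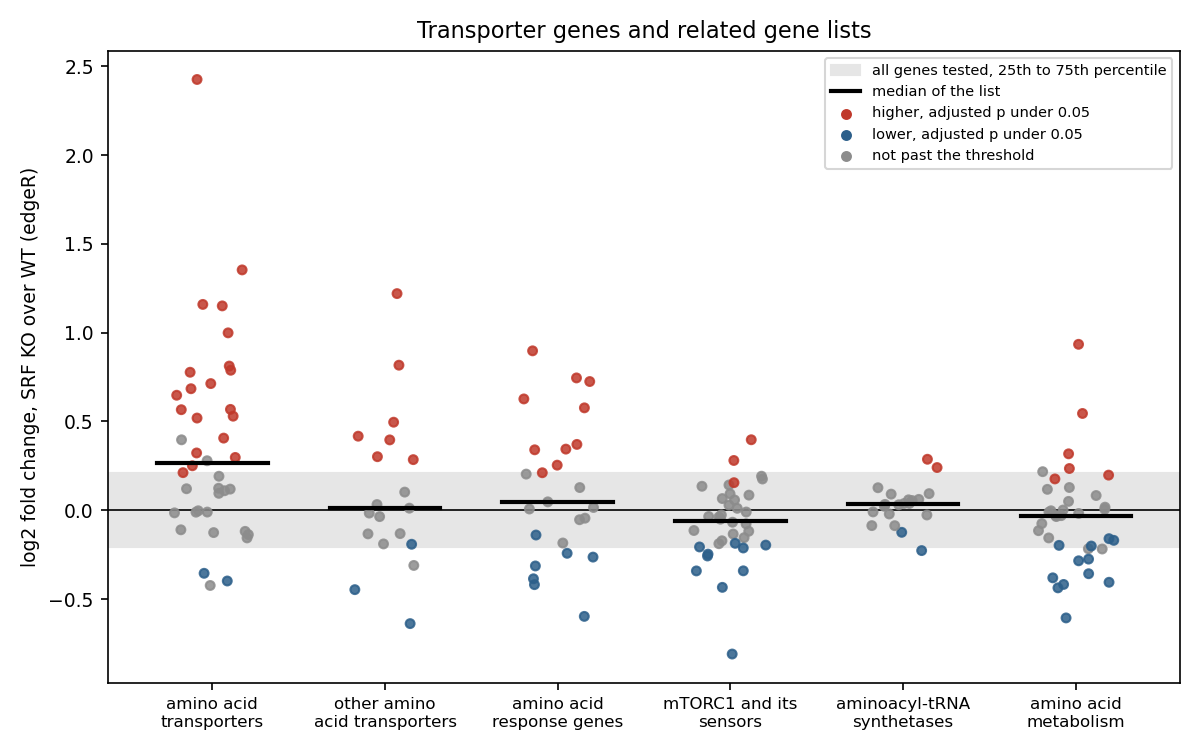
Log2 fold change of SRF KO over WT (y axis) of each tested gene in the transporter group and in 5 related lists (x axis, points spread sideways for clarity). Black lines are medians and the grey band holds the middle of all genes tested, from the 25th to the 75th percentile (-0.21 to 0.21). The median of the transporters, 0.26, is above this band, and those of the other lists lie between -0.06 and 0.05.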

How the data were processed

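The authors deposited raw counts of reads per gene and per transposable element subfamily, 1 column for each library, judged from the values. Per the labels' protocols, paired reads of 150 bp had adaptor, low-quality and empty reads removed. Per the submitters' processing notes, the build was mm10 and DESeq2 was used. The aligner, counting program, annotation and strand setting are not given in the sources used here.

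A single model of all entries was fitted with edgeR 4.0.16 under R 4.3.3 (filterByExpr with a minimum count of 10, TMM scaling, quasi-likelihood test, two-sided, no replicate term) and called at an adjusted p under 0.05. CPM values use the TMM factors, and intervals are 95%, from the SE and the test's degrees of freedom. Of the entries, 15611 were tested, 14778 of them genes. A count of 0 allows up to 3 counts, or 0.0828 to 0.117 CPM per library. This covers counting error only. No replicate pair agreed within sampling noise: chi-square over its degrees of freedom came to 12.9 and 15.5 in the pairs with WT replicate 2 and 1.83 to 5.13 in the others. Each library was therefore counted as a library of its own, which does not show separate cultures.

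The members and the lists were chosen with earlier results of these data known. Genes are named where they belong to the group with a mean of 10 or more counts, and, from each related list, where they are among the 4 smallest p past the threshold. The values of 1 member are not reported here, though it is in the counts. Pou5f1, Nanog, Tfcp2l1, Klf4, Esrrb, Dppa5a, Tdgf1, Zfp42, Ttr, Krt7, Ascl2, Nes, Map2 and Neurog1 were chosen after their values were seen. Positions and promoters are from RefSeq on GRCm38.p6, the assembly of mm10. Alternatives were DESeq2 1.42.0, its size factors, no filter, gene entries alone, a replicate block, and leaving out each library. The code of the fits was checked on simulated data with the same spread setting for every gene and fewer changed genes than called here. This does not show how accurate the fits are on these data.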

Additional observations from a re-analysis of the deposited data

How the results depend on the processing

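Of the 22 members called, 20 kept direction and call in all 11 refits, Slc7a9 and Slc1a3 being the exceptions. The median log2 fold change of all members ran from 0.24 to 0.30. Members higher numbered 19 to 21 under other tools, scalings and filters, and 18 to 20 in the fits that each left out 1 library. The number lower was 2 to 5 in the latter fits (5 without WT replicate 2). A fold change of at least 1 on the log2 scale, up or down, was required in another setting, which left 4 higher and 0 lower by construction. With the replicate block, 23 members were higher, 4 lower, and Srf was at -3.12; by their numbers the libraries were not paired (correlations of same-numbered deviations 0.042, 0.203 and 0.096), and those numbered 2 and 3, but not 1, correlated best with their own number. The members that gained a call with it were Slc1a5, Slc38a1, Slc38a10 and Slc6a6 upward and Slc38a4 and Slc6a7 downward, and Slc7a9 lost its call. The block also gave 4 synthetases and 6 mTORC1 genes higher. DESeq2 size factors gave 5 mTORC1 genes higher. With one library left out, mTORC1 genes higher were 1 to 4, synthetases higher 2 to 4 and lower 0 to 4, and metabolism enzymes lower 7 to 15. Synthetases lower were 1 under DESeq2, its size factors and no filter alike. The cause of these shifts was not tested. The members that changed sign were 6 with estimates near 0. With one library left out their log2 fold changes ran over Slc36a1 -0.0581 to 0.0553, Slc38a8 -0.3787 to 0.0213, Slc38a9 -0.0649 to 0.029, Slc43a3 -0.0974 to 0.0574, Slc6a15 -0.0479 to 0.0398 and Slc7a4 -0.2989 to 0.1272. Under DESeq2 size factors and DESeq2, Slc36a1 was at 0.0002 and 0.0004 and Slc6a15 at 0.007 and 0.0065. None was called in any of these fits. Over single members, 397 of 440 comparisons kept direction and call, 13 lost the call, 12 gained it and 18 changed sign, and 14 of 407 comparisons of single list genes lost the call. Counting depth limits Slc1a1, Slc1a6, Slc7a9, Slc38a8, Slc6a14 and Slc6a17, with at most 59 counts in any library.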
